A study of Mus musculus with 16 samples.

Results

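The genes described here are 36 genes of mitosis and the spindle, chosen by name from the 25054 genes counted in 16 mouse samples labeled osteosarcoma, called tumors here by that label. Each of the 36 had 1 row in the count table, and all 36 passed the filter on low counts. They cover cyclins and *Cdk1*, mitotic kinases, the spindle checkpoint, the kinetochore, spindle motors, condensin and cytokinesis.

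All 16 tumors came from mice with the genotype OsxCreERT2+/-;p53fl/fl;Rb1fl/fl, in which a tamoxifen-inducible Cre acts in cells that express *Osterix*, a transcription factor of pre-osteoblasts. The 8 tumors called KO also carried Arid1afl/fl, and the 8 called WT did not. *Arid1a* encodes a DNA-binding subunit of the SWI/SNF chromatin remodeling complex. Mice of both groups received 400 μg of tamoxifen per gram at 1 month of age and were older than 6 months when the tumors were taken. The KO tumors came from 8 mice, named Massa, Medusa, Montana, Ohio, Prince, Grilka, Zelda and Oregon, and their body sites are not given. The WT tumors came from 4 mice: N42 gave 4 (right pelvis, right femur, left limb, left shoulder), N43 gave 2 (spine, pelvis), N215 gave 1 (right hind limb) and N25 gave 1, labeled lung. The tests over tumors treat the tumors of 1 mouse as separate samples.

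A dividing cell makes the RNA of these genes in a wave that starts in S phase and peaks in G2 and mitosis. In resting cells the DREAM complex, which holds the pocket proteins related to *Rb1*, keeps many of them off, and B-Myb and *Foxm1* turn them on later in the cycle. Their RNA in a tumor therefore follows the number of dividing cells as well as the level in each cell. In whole-tumor RNA, fewer dividing cells and less RNA per cell cannot be told apart.

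Depth was lower in KO, whose tumors held 1109487 to 15059640 counts on genes (median 5367670), while WT tumors held 7806160 to 16962329 (median 14828152). The targeted gene, *Arid1a*, overlapped between the groups by RNA, at 107 to 270 CPM (counts scaled to the TMM-normalized library size) in KO and 125 to 236 CPM in WT. Its log2 fold change was 0.16 (SE 0.22, edgeR adjusted p = 0.715). The counts cover the whole gene and cannot show whether floxed exons were lost. Osteoblast markers (*Runx2*, *Sp7*, *Alpl*, *Ibsp*, *Bglap*, *Bglap2*, *Dmp1*, *Phex*, *Col1a1* and *Spp1*) took 0.245% to 6.56% of counts in WT and 1.04% to 2.65% in Medusa, Ohio, Grilka and Zelda. In the other 4 KO tumors they took 0.0357% (Prince), 0.0877% (Massa), 0.113% (Oregon) and 0.127% (Montana), each under 0.2%. *Sp7*, which encodes *Osterix*, had 0 counts in Massa and 0.166 CPM in Prince, against 5.49 to 147 CPM in WT. It was at 3.83 CPM in Montana and, inside the WT range, at 11.8 CPM in Oregon. Skeletal muscle markers took 8.56% of counts in Montana and 10.1% in Oregon, salivary gland markers took 9.25% in Prince, and lung markers took 0.485% in Massa. By share of counts, the markers of these 4 samples go against the label of a bone tumor. Single osteoblast markers were less uniform. *Ibsp* was at 150 CPM in Oregon, 116 in Massa, 14.3 in Montana and 0.166 in Prince. In WT it was at 77.5 CPM in N25 lung and 3.29 in N215. *Runx2* was at 191 CPM in Prince, 37.2 in Oregon, 11.2 in Massa and 6.89 in Montana, against 28.2 in N25 lung and 59.8 in N215. How much tumor each holds was not tested. Every value given here for these 4 samples, which includes every low KO value, carries that limit. In the other 4 KO tumors the shares were at most 0.0231% for muscle, 0.0201% for salivary gland and 0.00563% for lung. In WT they reached 1.14% for muscle (N43 pelvis) and 3.55% for lung (N25 lung). Zelda held more RNA of liver (0.255%), erythroid (0.185%) and lymphoid (0.0777%) marker genes than any other tumor.

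The share of counts on the mitotic genes was lowest in the same 4 KO tumors. All 36 together took 0.0064% of counts in Massa, 0.0074% in Montana, 0.008% in Prince and 0.0106% in Oregon. They took 0.0885% in Grilka, 0.328% in Ohio, 0.436% in Medusa and 0.491% in Zelda. In WT the share ran from 0.0517% in the N43 spine tumor to 0.303% in the N42 left limb tumor. The WT tumors therefore lay between the 2 sets of KO tumors, except that Grilka lay within the WT range. The part that other tissues played in the low shares was not tested. In the WT tumors with the least osteoblast RNA, the N25 lung tumor had osteoblast markers at 0.245% of counts and mitotic genes at 0.0714%, and the N215 hind limb tumor had 0.356% and 0.290%.

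**Figure D1:**
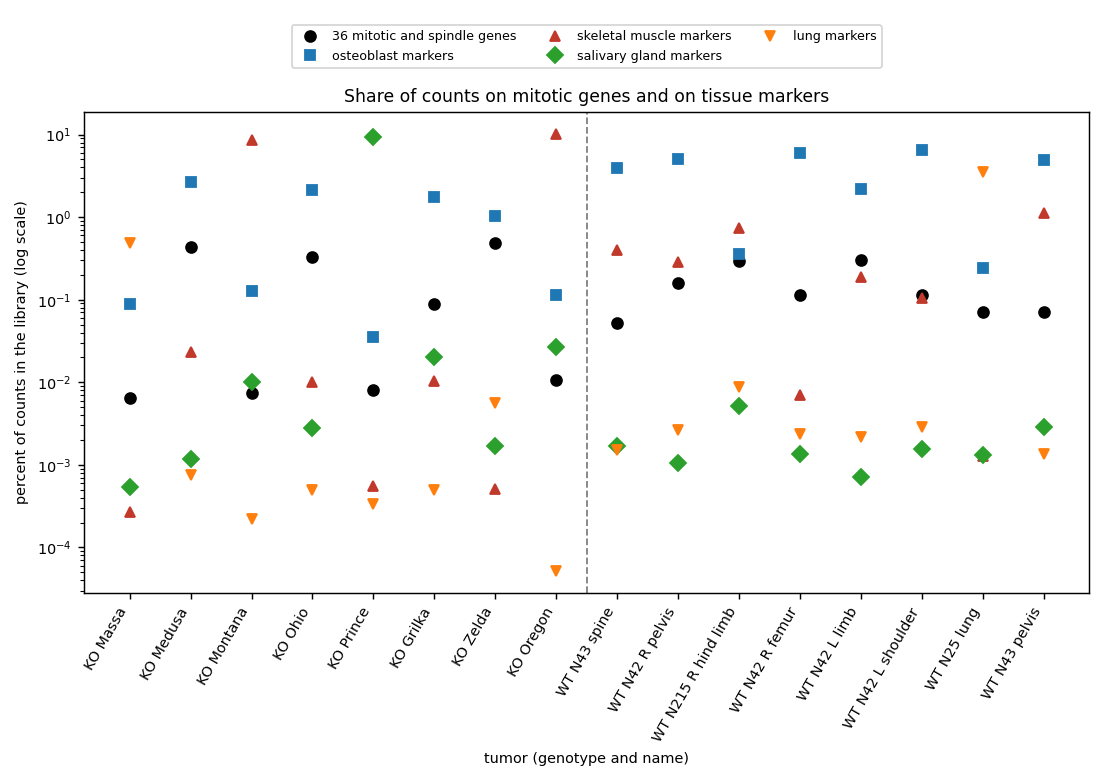
Percent of all counts in each library (vertical axis, log scale) for 16 tumors (horizontal axis), for the 36 mitotic and spindle genes and for 4 lists of tissue markers. Massa, Montana, Prince and Oregon have the lowest mitotic shares, 0.0064% to 0.0106%, and the lowest osteoblast shares, 0.0357% to 0.127%.

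*Mki67*, which encodes the Ki-67 protein that coats mitotic chromosomes and marks cycling cells, shows the pattern. It lies at chr7:135689784-135716361 on the minus strand (GRCm38). Its level in KO was 1460 CPM in Medusa, 1193 in Zelda, 509 in Grilka and 474 in Ohio. It was 29.0 CPM in Massa, 21.3 in Oregon, 9.96 in Prince and 4.34 in Montana. The WT tumors lay between 61.7 and 298 CPM with a median of 130. So in CPM 4 KO tumors were above every WT tumor and 4 were below every WT tumor, and the groups overlapped. The place of Grilka above WT depends on the scaling, since its library size was scaled by a TMM factor of 0.414. As a share of raw counts, *Mki67* in Grilka (379 of 1812818) was below that in the N42 left limb tumor (5897 of 14742508). The low values rest on few reads: 13 counts in Massa (exact Poisson 95% interval 15.4 to 49.6 CPM) and 17 in Montana (2.53 to 6.94 CPM), intervals that cover counting error only. Between Medusa and Montana the level differed 337-fold.

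Across genotypes no mitotic gene passed the test. edgeR called 0 of the 36 at an adjusted p under 0.05, and 0 had an unadjusted p under 0.05, while 4.01% of all 15413 genes tested were called and 23.0% had an unadjusted p under 0.05. DESeq2 also called 0 of 36, beside 12.5% of the 20078 genes to which it gave an adjusted p. It had 0 of 36 at an unadjusted p under 0.05, beside 22.5% of all genes. Limma-voom with a random effect for the mouse called 0 of 36, with 0 at an unadjusted p under 0.05. It called only 0.11% of all genes, so its 0 calls say little about the 36. The smallest adjusted p in edgeR was 0.335, for *Mki67*. Its log2 fold change, KO over WT, was 1.5 (SE 0.91). The mean of its log2 CPM was lower in KO (6.68) than in WT (7.18), a difference of −0.51. That difference had a two-sided exact permutation p = 0.677 over tumors (12870 splits) and p = 0.796 over 8 KO and 4 WT mice (495 splits).

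The sign of the comparison depended on the scale for most of the genes. The edgeR fold change compares mean levels, in which the highest tumors weigh most, and 22 of 36 were above 0 and 14 below, with a median of 0.0632 against 0.0969 over all genes tested. The mean log2 CPM, in which each tumor counts equally on a log scale, was lower in KO for all 36, with a median difference of −1.09 against −0.201 over all genes. No direction between genotypes is given for these genes on that account. The standard errors of the fold changes ran from 0.54 to 0.91 (median 0.776), against a median of 0.418 over all genes.

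**Figure D2:**
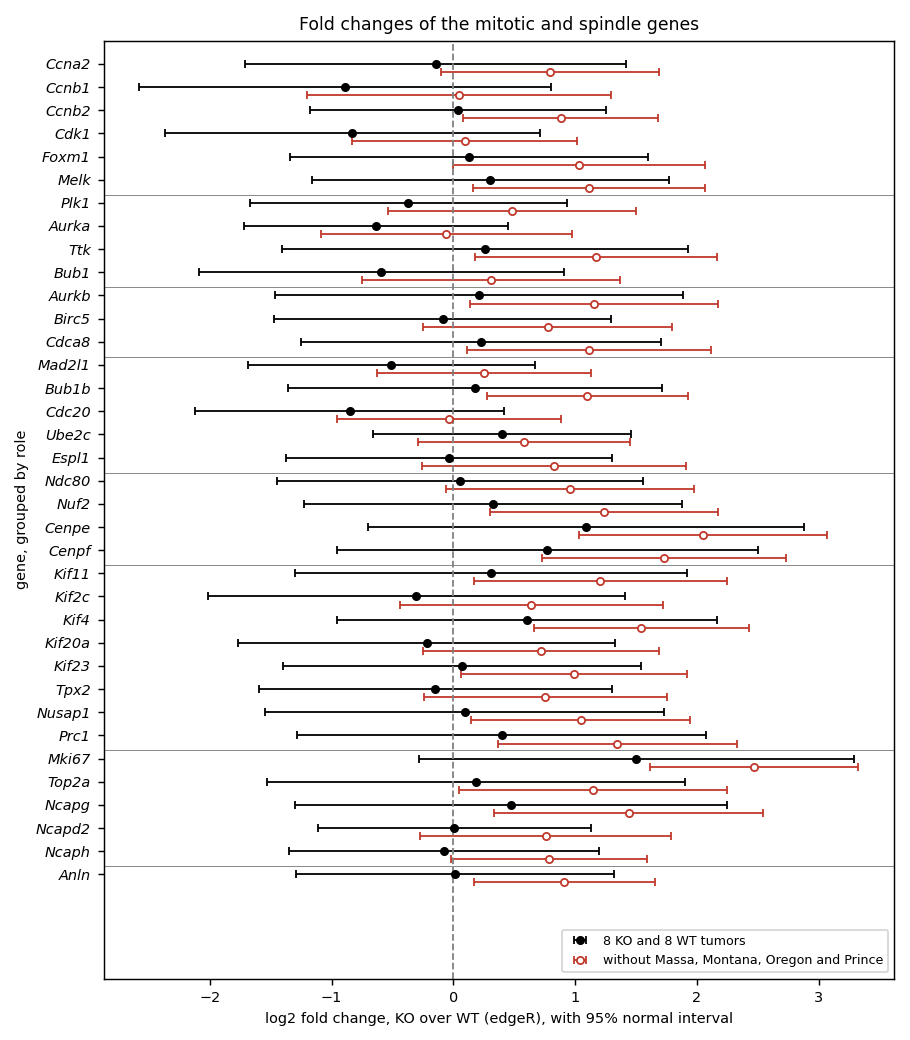
Log2 fold change, KO over WT, of each of the 36 genes (horizontal axis) by role (vertical axis), with 95% normal intervals from the edgeR SE. Black points use all 16 tumors and open red points leave out Massa, Montana, Oregon and Prince, and with all 16 every bar crosses 0.

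The spread was wider in KO. The SD of log2 CPM was larger in KO than in WT for 36 of 36 genes, beside 90.4% of all genes tested, so a larger SD in KO was the usual case in this table. The size was less usual: the median SD was 2.67 in KO and 0.993 in WT for the 36 genes, against 1.11 and 0.513 over all genes. The KO range enclosed the WT range in 26 of 36 genes, beside 56.6% of all genes. In no mitotic gene were the groups apart, beside 0.415% of all genes. Without Massa, Montana, Oregon and Prince, only 2 of 36 had a larger SD in KO, *Ttk* (1.05 against 0.888) and *Mki67* (0.833 against 0.762), beside 70.5% of all genes. These tumors were chosen after the values were seen and are below the other KO tumors in 35 of 36 genes. Leaving them out therefore narrows KO in these genes by construction, and the 2 shares are not a test.

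The tumors kept nearly the same order from gene to gene. After each gene was scaled to mean 0 and SD 1, the first principal component held 86.5% of the variance of the 36 genes, against 23.4% for all genes tested. Massa, Montana, Oregon and Prince were all below the other 4 KO tumors in 35 of 36 genes, beside 8.1% of all genes tested. They were all below the lowest WT tumor in 27 of 36, beside 7.47% of all genes. These 4 were named for their osteoblast share, after the values were seen, and they are also the 4 KO tumors with the fewest mitotic counts, so these numbers describe the tumors and are no test. Prince was the deepest KO library, with 15059640 counts. Its exact Poisson 95% upper limit was below the lowest WT tumor for 34 of 36 genes, against 32 in Montana, 29 in Oregon and 9 in Massa. Massa was shallow: 31 of the 36 genes had 3 counts or fewer and 10 had 0, and 3 counts are 6.69 CPM there, more than the lowest WT level of 16 genes. In the 34 genes with more than 3 counts in Prince, the highest KO tumor was 57.3-fold above Prince at the median, from 5.98-fold in *Ncapd2* up to *Cenpe*, where Medusa was at 393 CPM and Prince at 1.83. At the other end Medusa was above the WT median in 36 of 36 genes and above every WT tumor in 19, Zelda in 34 and 16, Ohio in 36 and 6, and Grilka in 27 and 10. Grilka had 1812818 counts, and 3 counts are 4.03 CPM there.

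**Figure D3:**
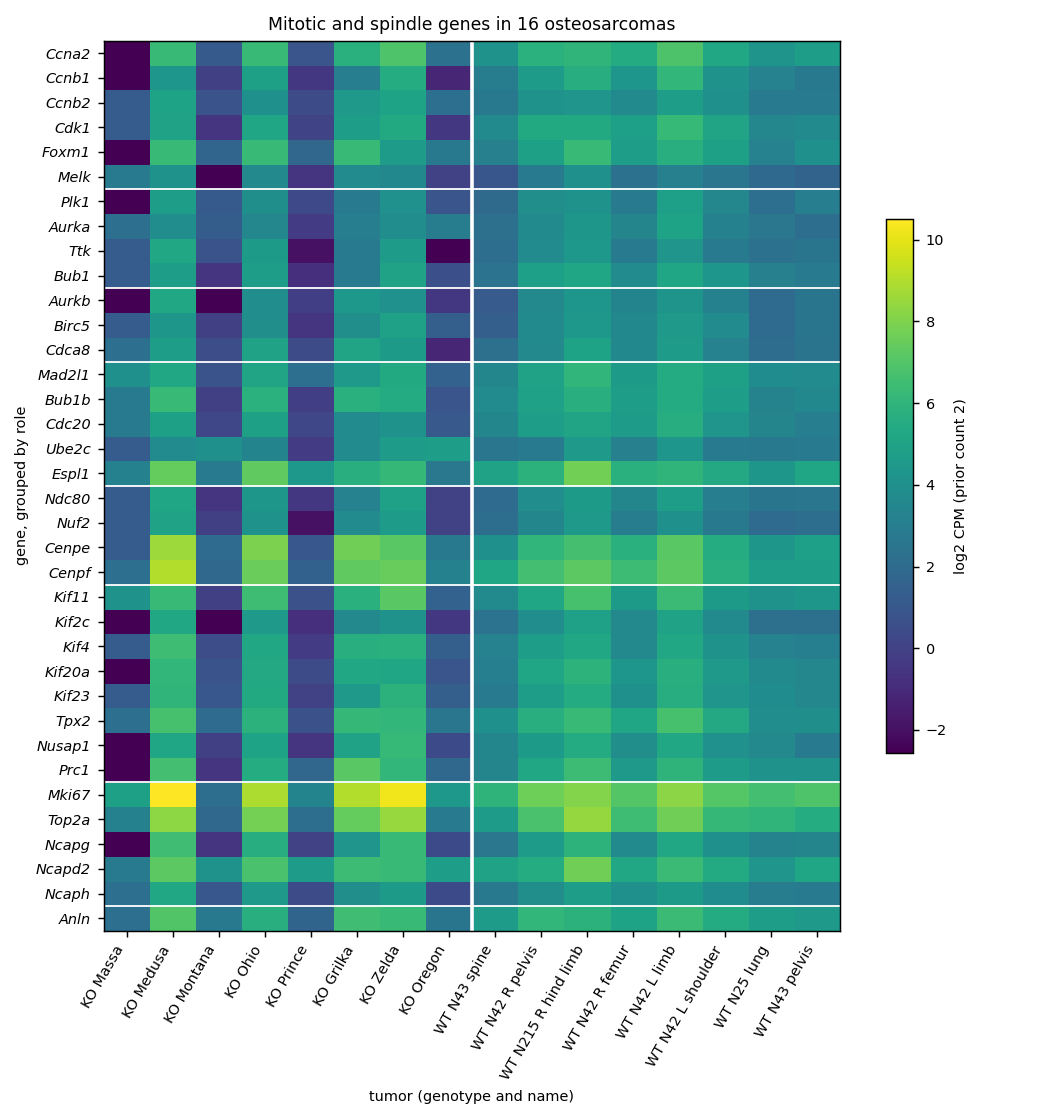
Log2 CPM (color, prior count 2) of the 36 genes (vertical axis, grouped by role between white lines) in 8 KO and 8 WT tumors (horizontal axis). The columns of Massa, Montana, Prince and Oregon are all darker than the other 4 KO columns in 35 of 36 genes, *Ube2c* being the exception, and *Mki67* in Medusa is the brightest cell.

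Many mitotic promoters carry 2 short motifs: the CCAAT box, bound by NF-Y, and the cell cycle genes homology region, spelled TTTGAA, bound by the DREAM and B-Myb complexes. Both were searched on both strands in the 300 bases around each RefSeq start (250 before and 50 after, GRCm38.p6), and matches of the 2 motifs can share at most 1 base. Of the 36 genes 31 had a promoter there, and *Aurkb*, *Ccna2*, *Foxm1*, *Kif20a* and *Tpx2* did not match. CCAAT was present in 22 of the 31 (71.0%), against 41.1% of 27025 genes. TTTGAA was also present in 22 of 31, against 20.2% of all genes, and 19 of 31 held both, against 8.0%. A match is a description of the letters and not of binding. *Ccnb1*, which had the most negative fitted difference, held 2 CCAAT and 0 TTTGAA matches in the 300 bases, and its sequence is not shown. The 150 bases before the start are shown for *Mki67*, which had the largest fitted difference, and for *Cdk1* and *Cdc20*, which had among the most negative. They are also shown for *Ccnb2*, which holds 3 CCAAT boxes there. All are on the minus strand, read 5′ to 3′, with the motifs on either strand in capitals.
Mki67, chr7:135716380-135716529: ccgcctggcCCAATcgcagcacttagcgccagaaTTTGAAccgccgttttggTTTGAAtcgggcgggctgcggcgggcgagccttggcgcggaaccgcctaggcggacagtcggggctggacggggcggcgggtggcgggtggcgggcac
Cdk1, chr10:69352913-69353062: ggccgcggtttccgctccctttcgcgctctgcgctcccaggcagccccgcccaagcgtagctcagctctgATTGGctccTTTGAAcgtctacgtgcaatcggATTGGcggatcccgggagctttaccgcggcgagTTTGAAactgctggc
Cdc20, chr4:118437344-118437493: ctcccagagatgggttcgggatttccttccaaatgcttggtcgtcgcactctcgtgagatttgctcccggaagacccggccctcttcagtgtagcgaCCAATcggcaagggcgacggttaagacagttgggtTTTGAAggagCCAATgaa
Ccnb2, chr9:70421555-70421704: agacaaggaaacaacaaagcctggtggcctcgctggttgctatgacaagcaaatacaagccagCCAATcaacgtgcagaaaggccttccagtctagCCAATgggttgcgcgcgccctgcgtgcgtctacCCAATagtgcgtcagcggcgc

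Among the 6 cyclins, *Cdk1* and regulators of their genes, 3 had a positive fitted fold change and 3 a negative one (−0.89 to 0.30). *Ccna2* (chr3:36564865-36572150, minus strand), the cyclin of S phase and G2, had the highest mean CPM. It had 0 counts in Massa, then 1.66 CPM in Prince, 2.04 in Montana and 5.03 in Oregon, but 53.7 in Grilka, 77.7 in Medusa, 79.2 in Ohio and 120 in Zelda. The WT tumors ran from 17.5 to 115 CPM with a median of 41.5. Its log2 fold change was −0.14 (SE 0.80, adjusted p = 0.939), and 4 KO tumors were below the WT range, 3 inside it and 1 above it. *Ccnb1* (chr13:100778650-100786570, minus strand), the cyclin that activates *Cdk1* at entry into mitosis, had the most negative fitted change, −0.89 (SE 0.86, adjusted p = 0.575). It was at 0 counts in Massa, and at 0.28 CPM in Oregon, 0.581 in Prince, 0.765 in Montana, 8.06 in Grilka, 19.9 in Medusa, 29.0 in Ohio and 45.6 in Zelda. In WT *Ccnb1* ran from 6.42 to 68.2 CPM with a median of 18.2. No KO tumor was above the highest WT tumor in *Ccnb1*, unlike *Mki67*. *Cdk1*, the kinase that drives mitosis, gave −0.83 (SE 0.79, adjusted p = 0.565), with KO from 0.51 to 41.9 CPM and WT from 11.04 to 72.1 CPM. *Ccnb2* ran from 1.25 to 32.7 CPM in KO and from 6.43 to 27.0 in WT. *Foxm1*, the transcription factor of late cell cycle genes, ran from 0 to 76.9 CPM in KO and from 8.68 to 76.3 in WT. *Melk*, a kinase, ran from 0 to 17.3 CPM in KO and from 1.76 to 15.7 in WT.

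The 4 mitotic kinases had fitted changes from −0.64 to 0.26, of which 1 was positive. *Bub1* (chr2:127801122-127831865, minus strand), a checkpoint kinase at the kinetochore, was the most abundant by CPM. Its levels were 0.415 CPM in Prince, 0.51 in Montana, 1.40 in Oregon, 2.23 in Massa, 6.71 in Grilka, 26.6 in Medusa, 27.3 in Ohio and 31.3 in Zelda. WT ran from 5.11 to 34.4 CPM with a median of 16.7, so no KO tumor exceeded the highest WT tumor. The log2 fold change of *Bub1* was −0.59 (SE 0.77, adjusted p = 0.689). *Aurka*, the Aurora kinase of the centrosome and spindle poles, gave −0.64 (SE 0.55, adjusted p = 0.521). *Aurka* was one of 3 genes in which Oregon was inside the WT range, at 7.83 CPM against 4.26 to 32.2 CPM. *Plk1*, the polo kinase of mitotic entry, ran from 0 to 26.4 CPM in KO and from 3.79 to 27.7 in WT. *Ttk*, the kinase that starts the spindle checkpoint, ran from 0 to 37.4 CPM in KO and from 4.29 to 21.4 in WT.

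The 3 genes of the chromosomal passenger complex, which corrects faulty spindle attachments, had fitted changes from −0.09 to 0.23. *Cdca8* (chr4:124918465-124939311, minus strand), which encodes borealin, had the highest mean CPM. It was at 0.28 CPM in Oregon, 1.25 in Prince, 1.28 in Montana and 4.46 in Massa, and at 23.3 in Zelda, 26.2 in Medusa, 31.1 in Ohio and 33.6 in Grilka. WT ran from 4.195 to 31.9 CPM with a median of 10.3, and the log2 fold change was 0.23 (SE 0.75, adjusted p = 0.892). The value of Massa rests on 2 counts. *Aurkb*, the kinase of the complex, ran from 0 to 37.6 CPM in KO and from 2.09 to 19.4 in WT. *Birc5*, survivin, ran from 0.498 to 29.6 CPM in KO and from 2.47 to 22.5 in WT.

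Of the 5 genes of the checkpoint and anaphase, 2 had a positive fitted change and 3 a negative one (−0.85 to 0.40). *Espl1* (chr15:102296266-102324357, plus strand), separase, cuts cohesin at anaphase and was the most abundant of them by CPM. KO levels were 6.15 CPM in Oregon, 6.63 in Montana, 8.92 in Massa, 20.9 in Prince, 49.7 in Grilka, 70.0 in Zelda, 162 in Ohio and 173 in Medusa. WT ran from 20.5 to 215.1 CPM (median 46.7), and its highest tumor, N215, was above all 8 KO tumors. Its log2 fold change was −0.04 (SE 0.68, adjusted p = 0.982). *Cdc20*, which activates the anaphase-promoting complex (APC/C), gave −0.85 (SE 0.65, adjusted p = 0.458). *Cdc20* ran from 0.996 CPM in Prince to 28.7 in Medusa and Ohio, and from 7.97 to 47.6 in WT. The checkpoint proteins *Mad2l1* and *Bub1b* ran from 1.53 to 42.2 CPM and from 0.747 to 78.4 CPM in KO, and from 10.7 to 66.2 CPM and from 9.62 to 52.3 CPM in WT.

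*Ube2c*, the ubiquitin-conjugating enzyme of the APC/C, left the common order. It was 26.3 CPM in Oregon, above the 10.02 to 25.3 CPM of Ohio, Medusa, Grilka and Zelda, and 15.8 in Montana, within that range, while Prince was at 0.664 and Massa at 2.23. WT ran from 5.72 to 21.7 CPM. *Ube2c* (chr2:164769898-164778822, plus strand) overlaps *Tnnc2* (chr2:164777161-164779967, minus strand), the gene of fast skeletal troponin C, by 1662 bases. *Tnnc2* was at 4239 CPM in Oregon and 2633 in Montana, and at most 161 in the other 14 tumors. The strand of the counting is not given in the sources used here, so reads of these 2 genes cannot be told apart within those 1662 bases. Among the 36, *Ccna2*, *Foxm1*, *Cdca8*, *Cdc20*, *Kif4*, *Kif20a*, *Nusap1*, *Prc1* and *Ncapg* also overlap another protein-coding gene (10 in all, GENCODE vM21).

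The 4 kinetochore genes all had positive fitted changes, from 0.05 to 1.09, and none passed the test. *Cenpf* (chr1:189640606-189688086, minus strand), a large protein of the outer kinetochore, had the highest mean CPM of them. It was at 509 CPM in Medusa, 183 in Ohio, 180 in Zelda and 163 in Grilka, and at 8.95 in Oregon, 4.46 in Massa, 3.32 in Montana and 2.66 in Prince. WT ran from 25.9 to 149 CPM with a median of 68.8, so in CPM the 8 KO tumors lay 4 above and 4 below. The log2 fold change was 0.77 (SE 0.88, adjusted p = 0.642). *Cenpe*, the kinesin that holds kinetochores to microtubule ends, gave 1.09 (SE 0.91, adjusted p = 0.506), with 393 CPM in Medusa, 1.83 in Prince and 15.8 to 144 in WT. *Ndc80* and *Nuf2*, partners in the complex that binds microtubules, ran from 0.51 to 35.1 CPM and from 0.083 to 31.7 CPM in KO, and from 3.90 to 26.9 CPM and from 3.87 to 22.0 CPM in WT.

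Among the 8 spindle motors and microtubule proteins, 5 fitted changes were positive and 3 negative (−0.31 to 0.61). *Kif11* (chr19:37376403-37421859, plus strand), the motor that pushes spindle poles apart, had the highest mean CPM. It was at 0.765 CPM in Montana, 1.41 in Prince, 2.80 in Oregon and 17.8 in Massa (8 counts), and at 53.7 in Grilka, 79.8 in Medusa, 88.4 in Ohio and 146 in Zelda. WT ran from 12.8 to 104 CPM with a median of 23.6, and the log2 fold change was 0.31 (SE 0.82, adjusted p = 0.863). *Kif4*, a chromosome-bound kinesin, gave 0.61 (SE 0.80, adjusted p = 0.694), with 39.3 to 87.4 CPM in the 4 higher KO tumors, 0.664 to 2.52 in the other 4 and 8.32 to 38.5 in WT. *Tpx2*, which activates *Aurka* on the spindle, was the only one of the 8 in which no KO tumor passed the highest WT tumor (105 CPM in Medusa, 106 in the N42 left limb tumor). The highest KO levels of *Kif2c*, *Kif20a*, *Kif23*, *Nusap1* and *Prc1* were 37.8, 68.6, 63.8, 73.3 and 142 CPM, and their highest WT levels were 31.4, 59.9, 47.8, 44.8 and 82.9 CPM.

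The 5 genes of chromosome structure include *Mki67*. *Top2a*, the topoisomerase that untangles sister chromatids, was at 360 CPM in Zelda, 315 in Medusa, 223 in Ohio and 171 in Grilka, and at 3.32 to 8.92 CPM in the other 4 KO tumors. WT ran from 24.95 to 354 CPM, a 14.2-fold range that was the widest of the 36 genes in WT. *Ncapg*, *Ncapd2* and *Ncaph* are condensin subunits. *Ncapd2* was the flattest of these in KO (6.69 to 150 CPM, WT 19.0 to 204), and Prince and Oregon, at 25.1 and 26.6 CPM, were inside its WT range. *Anln* (chr9:22332012-22389188, minus strand), anillin of the cleavage furrow, is the only gene of cytokinesis listed. It was at 2.99 CPM in Prince, 4.46 in Massa, 5.59 in Oregon and 6.38 in Montana, and at 49.0 in Ohio, 77.5 in Zelda, 90.0 in Grilka and 123 in Medusa. WT ran from 22.9 to 82.5 CPM (median 38.4), and the log2 fold change of *Anln* was 0.01 (SE 0.67, adjusted p = 0.993).

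**Figure D4:**
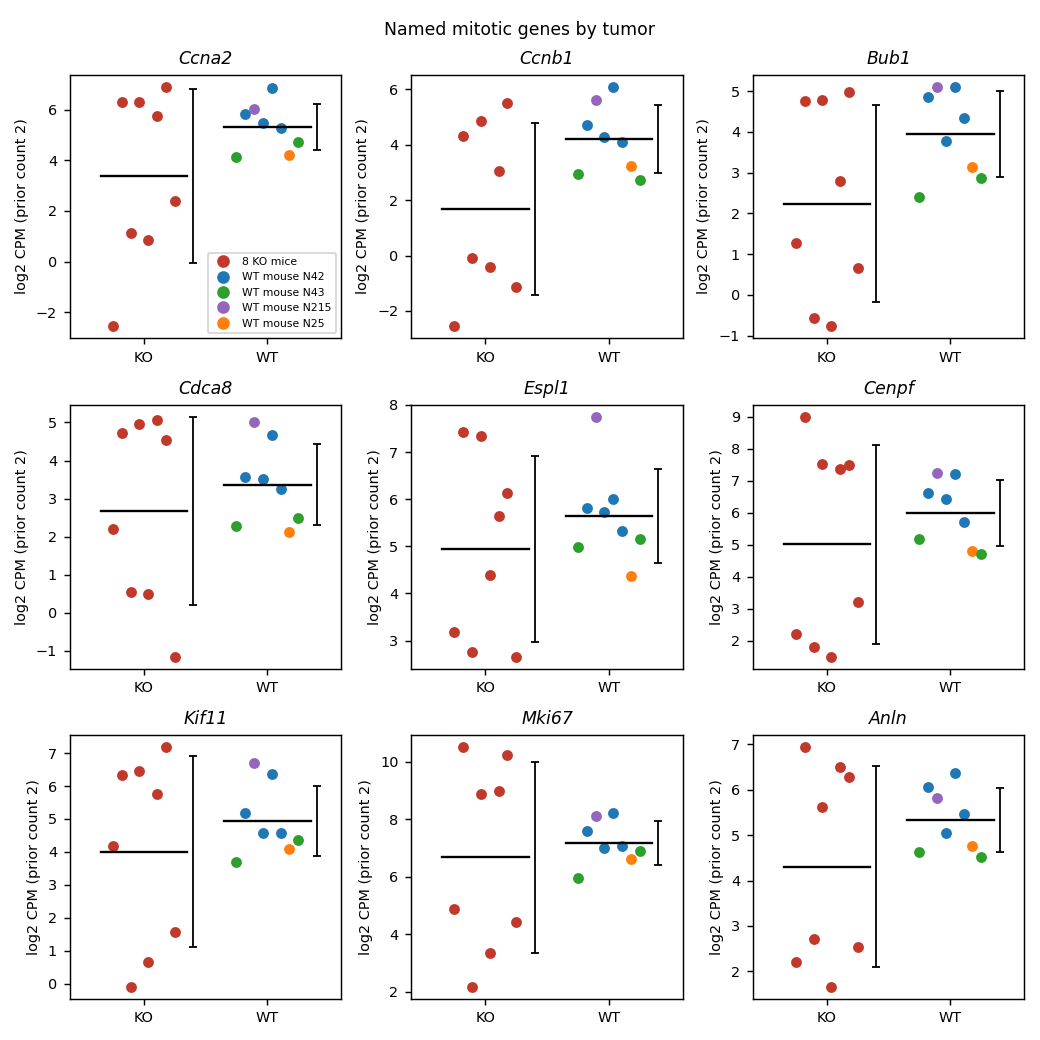
Log2 CPM (prior count 2, vertical axes) of 9 named genes in KO and WT tumors (horizontal axis); each point is a tumor, colored by mouse in WT, lines are group means and bars are 1 SD. In every panel the KO points spread wider than the WT points, and in *Mki67* and *Cenpf* they fall 4 above and 4 below all WT points.

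In 4 genes, *Mki67*, *Cenpe*, *Cenpf* and *Kif4*, 4 KO tumors were above the highest WT tumor in CPM. Grilka was among them, but as a share of raw counts it was below the N42 left limb tumor in each of these genes. All 4 genes also had 4 KO tumors below the lowest WT tumor, beside 0.26% of all genes tested. In 10 of the 36 genes no KO tumor was above the highest WT tumor. With Massa, Montana, Oregon and Prince left out, which was chosen after the values were seen, the median fold change of the 36 was 0.936, 34 of 36 were positive, and edgeR called 2, *Mki67* at 2.47 (SE 0.44, adjusted p = 0.0152) and *Cenpe* at 2.05 (SE 0.52, adjusted p = 0.0394), beside 5.63% of all genes. Since those 4 tumors are also the lowest in these genes, leaving them out raises the KO level by construction. With only Medusa and Ohio in KO, edgeR called 1 of 36, *Mki67* at 2.53 (SE 0.51, adjusted p = 0.0284), beside 4.45% of all genes.

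Within WT the 36 genes also kept an order by tumor. The highest WT tumor was N215 right hind limb in 21 genes and N42 left limb in 15, beside 33.5% of all genes tested in which 1 of these 2 was highest. The N43 spine tumor was lowest in 21, N25 lung in 8 and N43 pelvis in 7, and these 3 were all below the other 5 WT tumors in 34 of 36, beside 6.09% of all genes. These tumors were picked out after the values were seen. *Mki67* was 298 CPM in N42 left limb, 275 in N215, 194 in N42 right pelvis, 133 in N42 left shoulder, 128 in N42 right femur, 119 in N43 pelvis, 98.1 in N25 lung and 61.7 in N43 spine. The fold between the highest and the lowest WT tumor had a median of 6.82, from 3.61 in *Anln* to 14.2 in *Top2a*. Within mouse N42 the left limb tumor was the highest in 36 of 36 genes, beside 28.8% of all genes, at 2.24 times the median of the other 3 tumors at the middle gene (1.2 to 3.51). Sites differed within N42 and within N43, and pelvis occurred in both mice, but no site had more than 2 tumors, and no test was made between sites or mice.

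Divided by exon length, *Mki67* had the highest WT median, 12.96 CPM per kb, followed by *Cdc20* (11.8), *Ccna2* (10.2), *Ccnb2* (9.30), *Top2a* (8.82) and *Tpx2* (8.08). The lowest WT medians per kb were those of *Nuf2* (1.12), *Ttk* (1.43) and *Ndc80* (1.45). In KO the median level was 24.98 CPM per kb for *Mki67*, 9.96 for *Top2a* and 5.39 for *Cdc20*. *Cenpe* (8.78) was among the genes between *Top2a* and *Cdc20*. These KO medians fall in the gap between the 4 higher and the 4 lower KO tumors. For *Mki67* the gap runs from 29.0 CPM in Massa to 474 CPM in Ohio. Levels differed several-fold within WT and more widely within KO, and the order of neighboring genes was not tested.

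A further 111 genes of the same machinery, listed by role, gave the same call. edgeR called 0 of 111, beside 4.01% of all genes tested. An unadjusted p under 0.05 was found for 10, of which 7 were higher in KO and 3 lower, beside 23.0% of all genes. The median fitted change was 0.0905, with 64 genes positive and 47 negative. DESeq2 called 12.5% of the 20078 genes to which it gave an adjusted p, and 1 of the 111, *Mad1l1*, a checkpoint protein that binds Mad2, at 1.48 (SE 0.47, DESeq2 adjusted p = 0.022), where edgeR gave 1.46 (SE 0.47, adjusted p = 0.0816). In 46 of the 111 genes Massa, Montana, Oregon and Prince were all below the lowest WT tumor, beside 7.47% of all genes. By listed role these were 7 of 13 genes under cyclins and regulators, 5 of 5 under mitotic kinases (with *Bora*) and 11 of 20 under motors and microtubule proteins (with *Plk4*). They were also 10 of 29 kinetochore genes, 4 of 4 cytokinesis genes and 5 of 14 genes of chromosome structure. The last were 4 of 25 checkpoint and anaphase genes, and 0 for the 1 passenger gene. The 11 subunits of the APC/C, which are needed in resting cells too, had a median SD of log2 CPM of 0.514 in KO and 0.252 in WT, lower than the 1.11 and 0.513 over all genes. The 3 most abundant of the 111 were *Numa1*, the spindle pole protein (80.3 to 421 CPM in KO, 115 to 366 in WT), *Anapc5*, an APC/C subunit (127 to 667 and 115 to 176 CPM), and *Rad21*, a cohesin subunit (46.4 to 222 and 102 to 1262 CPM). Their log2 fold changes were 0.50 (SE 0.32, adjusted p = 0.363), 0.92 (SE 0.35, adjusted p = 0.131) and −1.15 (SE 0.54, adjusted p = 0.217). *Anapc5* was highest in Montana (667 CPM) and Oregon (515 CPM), which hold the most muscle marker RNA, and at 127 to 223 CPM in the other KO tumors. The part that muscle played in this was not tested.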

How the data were processed

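Ribosomal RNA was removed from total RNA of 16 tumors, and 50-cycle single-end reads were sequenced. Per the study's methods, the authors aligned reads with Novoalign (v2.08.01, up to 50 alignments per read) to mm10 with Ensembl transcript models and counted reads per gene with USeq. The values are the raw counts they deposited, before DESeq2 (v1.26.0) normalization. Reads that fit several near-identical genes may be split, and strand use is not given in the sources used here. The table holds whole numbers for 25054 genes, and no column was left unused.

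Groups, mice and sites were taken from the sample labels. KO was compared with WT over all 25054 genes with edgeR 4.0.16 in R 4.3.3 (TMM, filterByExpr with a minimum count of 10 and total of 15, glmQLFit, glmQLFTest, no covariate, Benjamini-Hochberg adjustment over the 15413 genes kept, threshold 0.05). CPM are counts scaled to the TMM-normalized library size, and log2 CPM uses a prior count of 2. The TMM factors ran from 0.409 (Massa) to 1.50 (Zelda), so CPM in Massa and Grilka (0.414) are high relative to shares of raw counts. Alternatives used DESeq2 1.42.0, limma-voom 3.58.1 with statmod 1.5.0, other scaling and filters, counts summed per mouse, and left-out tumors. The fits were tested on simulated counts with 200 changed genes at a dispersion of 0.3, lower than in the data (biological coefficient of variation 70.4%). A two-sided exact permutation test was made for *Mki67* only. The other p-values of single genes are from edgeR or, where named, DESeq2. Intervals and floors of 3 counts cover counting error only. Positions and exon lengths come from GENCODE vM21 (GRCm38), in which 24974 genes matched by identifier, and promoters from RefSeq (GRCm38.p6). Python 3.11.15, numpy 2.4.6, pandas 2.3.3, scipy 1.17.1 and matplotlib 3.10.9 were used.

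The 36 genes, the 111 further genes and the marker lists were chosen with earlier results of these data known. Values by tumor are given for *Mki67*, for the gene with the highest mean CPM in each role and for the largest fitted changes in each direction. Fold changes are given for these and for the gene with the smallest p in each role. The remaining genes are given by their ranges. *Mad1l1* and *Cdc16* were named after their values were seen.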

Additional observations from a re-analysis of the deposited data

Results flagged for a closer look

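In each group of 8 tumors the gap between the highest or lowest tumor and its nearest neighbor was divided by the range of the group and compared with Dixon's 95% critical value for 8 samples, for the 36 mitotic genes and 5 of the further genes. Chance marks about 1 in 20 groups. Of the 82 groups 4 were marked, all of them in the 5 further genes and none among the 36. *Cdc16* was named after its values were seen, so the marks are a description and no test against chance. *Cdc16*, a subunit of the APC/C, was at 11.07 log2 CPM (2150 CPM) in the KO tumor Medusa, where the gap was 0.64 of the range. *Cdc16* was also apart in the WT tumor N215, at 7.36 log2 CPM (164 CPM, gap 0.578). *Numa1*, the spindle pole protein, was at 8.52 log2 CPM (366 CPM, gap 0.535) in N215. *Rad21*, a cohesin subunit, was at 10.3 log2 CPM (1262 CPM, gap 0.775) in the N42 left limb tumor.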

How the results depend on the processing

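No paired analysis was possible because no mouse gave tumors to both groups. The 36 genes gave 0 calls under 24 of 26 distinct alternatives. The exceptions were Medusa and Ohio alone as KO (1 call, median fold change 1.03) and, chosen after the data were seen, leaving out Massa, Montana, Oregon and Prince (2 calls, median 0.936, and 2 genes with a larger SD in KO). Limma-voom with a random effect for the mouse, which works on log values, gave a median of −0.815. Of the 36 fitted changes, 22 were positive in the main comparison and with DESeq2, 0 with limma-voom, 19 with no filter, 28 without N42 and 34 with Medusa and Ohio alone. With each tumor left out, 8 (without Medusa) to 27 were positive. Leaving out 1 tumor at a time gave 0 to 0 calls and medians from −0.309 (without Medusa) to 0.425 (without N215), below 0 also without Ohio, Grilka, Zelda, N43 spine, N25 or N43 pelvis. Of the 111 further genes, 1 was called by DESeq2, beside 12.5% of the genes to which it gave an adjusted p. Without Montana, Oregon and Prince 1 was called (*Cenpn*), beside 2.64% of all genes. Medusa and Ohio alone gave 9 (beside 4.45%), and leaving out Massa, Montana, Oregon and Prince gave 14 (beside 5.63%). With each tumor left out 0 to 1 were called (beside 1.62% to 8.52%): *Mad1l1* without Massa or N215, *Lin54* without Zelda. Over all genes, edgeR called 618, DESeq2 2517, the fit per mouse 10, limma-voom 17, the fit without N42 8, Medusa and Ohio alone 858 and the fit without Massa, Montana, Oregon and Prince 976.

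Among the 14 genes given with a fold change, fitted log2 changes turned sign as follows, and none of these passed the test. With limma-voom: *Anln* −0.80, *Cdca8* −0.45, *Cenpe* −0.34, *Cenpf* −0.65, *Kif11* −0.81, *Kif4* −0.58 and *Mki67* −0.42. With Medusa and Ohio alone: *Bub1* 0.47, *Ccna2* 0.68, *Cdc20* 0.30, *Cdk1* 0.028 and *Espl1* 1.35. Without Massa, Montana, Oregon and Prince: *Bub1* 0.31, *Ccna2* 0.79, *Ccnb1* 0.046, *Cdk1* 0.092 and *Espl1* 0.83. Without Montana, Oregon and Prince: *Bub1* 0.065, *Ccna2* 0.49 and *Espl1* 0.54. Without Massa and Grilka: *Anln* −0.041 and *Espl1* 0.16. *Anln* was −0.039 with no filter and −0.066 without N25, and *Ccna2* was 0.087 with counts summed per mouse and 0.50 without N42. With each tumor left out, *Anln* ran from −0.42 to 0.20, *Ccna2* from −0.59 to 0.18, *Cdca8* from −0.030 to 0.61, *Espl1* from −0.46 to 0.59 and *Kif11* from −0.19 to 0.74. The causes were not tested. In Massa and Grilka, depth limits genes under about 6.69 and 4.03 CPM.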

Other observations

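The *Cdc16* level of Medusa was shared by its neighbors on the chromosome. *Cdc16* (chr8:13757676-13781938, plus strand, GRCm38) had 10181 counts in Medusa, 43.5 times the median of the other 15 tumors. Of the 24 other genes tested within 1 Mb of it, 15 were highest in Medusa, beside 8.29% of all 15413 genes, and their median level in Medusa was 11.1 times the median of the other tumors. *Rad21* (chr15:51962240-51991747, minus strand) had 24994 counts in the N42 left limb tumor, 10.1 times the median of the other tumors. All 3 other genes tested within 1 Mb of *Rad21* were highest in that tumor, beside 3.35% of all genes, at a median of 6.06 times the other tumors. Both regions were looked at after the values were seen, and DNA copy number was not measured here.

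The balance between *Mki67* and *Ccnb1* counts within a tumor, also looked at after the values were seen, needs no scaling between libraries. The log2 ratio of *Mki67* to *Ccnb1* counts was 6.20 in Medusa, 5.98 in Grilka (on 6 counts of *Ccnb1*), 4.71 in Zelda, 4.10 in Prince (on 7 counts) and 4.03 in Ohio. In WT it ran from 2.13 in N42 left limb to 4.22 in N43 pelvis. Massa, Montana and Oregon had 3 counts of *Ccnb1* or fewer and give no ratio. The N43 pelvis tumor was above Prince and Ohio, so the groups overlapped, and no test was made.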
